A study of Mus musculus with 4 samples.

Results

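The opioid peptide precursors Penk, Pdyn and Pnoc, the tachykinin precursor Tac1 and the 4 receptors of the opioid family, Oprm1, Oprd1, Oprk1 and Oprl1, were followed in every library of a single-nucleus RNA sequencing experiment on mouse brain. These 8 genes, taken by name, were all among the 31053 genes of the count files. The libraries came from male C57BL/6J mice of 8 weeks that had received an adeno-associated virus of serotype 9 (AAV9) by injection into the cisterna magna, a pool of cerebrospinal fluid at the base of the brain. AAV-VEGF-C carried the whole mouse growth factor VEGF-C, and AAV-CTRL carried a soluble part of its receptor VEGFR3 that does not bind it. The brains of 5 mice per virus were pooled and divided into a cortex and a striatum fraction, so that each of the 4 groups was 1 library and the same mice gave both regions of a virus group. No test between groups was possible with 1 library per group: every interval below is an exact 95% interval that covers counting error only, and differences between animals could not be measured. Levels are given as counts of unique molecular identifiers (UMIs, each standing for 1 captured transcript) per 1000000 UMIs (CPM). Wherever 4 values are listed in a row, those of the libraries labelled cortex come first, and within each region label AAV-CTRL precedes AAV-VEGF-C.

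Opioid peptides are cut from large precursors and act on receptors that couple to inhibitory G proteins. Penk gives the enkephalins, which act mainly at the delta (Oprd1) and mu (Oprm1) receptors. Pdyn gives the dynorphins, ligands of the kappa receptor (Oprk1), and Pnoc gives nociceptin, the ligand of Oprl1. Tac1 gives substance P and neurokinin A, which are no opioids but share neurons with dynorphin. In the striatum, the spiny projection neurons (SPNs) that carry the dopamine receptor Drd1 are known for Tac1 and Pdyn, and those that carry Drd2 for Penk.

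The labels of region did not match the striatal genes. Ppp1r1b, the phosphoprotein DARPP-32 of SPNs, was at 63.1 and 75.6 CPM in the AAV-CTRL and AAV-VEGF-C libraries labelled cortex, and at 18.9 and 18.5 CPM in those labelled striatum. Drd1, Drd2 and Rgs9 were lower in both libraries labelled striatum as well. These libraries held more Slc17a6, the glutamate transporter of many subcortical neurons (148 and 176 CPM against 15.8 and 16.0 CPM), more Gad2 and less Slc17a7, the transporter of cortical excitatory neurons. They are therefore called the libraries labelled striatum throughout. Vegfc was at 11.7 to 12.9 CPM in all 4 libraries, and whether the vector carries the stretch that was counted was not tested. After removal of doublets, 16230, 18947, 21362 and 16418 nuclei remained in the 4 libraries, with medians of 2494, 2656, 2126.5 and 2538.5 UMIs. Pairs of libraries shared 76 to 118 barcodes.

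Promoters of 5 of the 8 genes, from 250 bases before to 50 bases after a transcript start, were found in RefSeq sequence of build GRCm38.p6. Those of Tac1 and Pdyn are shown because both peptides were high in the same SPNs, and that of Oprd1 because this receptor was high in the other SPNs. Capitals mark matches, on either strand, to the letters of motifs bound by cAMP- or activity-dependent and E-box factors. The motifs searched were the CRE (letters TGACGTCA), a variant of the CRE (letters TGCGTCA), the AP-1 site (letters TGANTCA) and the E-box (letters CACGTG).
Tac1, chr6:7554811-7555110, plus strand: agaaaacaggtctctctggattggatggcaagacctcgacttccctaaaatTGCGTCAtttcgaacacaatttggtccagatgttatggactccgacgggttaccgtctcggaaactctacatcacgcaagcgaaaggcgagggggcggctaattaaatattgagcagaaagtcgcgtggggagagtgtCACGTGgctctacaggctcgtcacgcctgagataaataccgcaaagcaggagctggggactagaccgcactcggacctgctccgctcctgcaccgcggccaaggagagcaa
Pdyn, chr2:129698609-129698908, minus strand: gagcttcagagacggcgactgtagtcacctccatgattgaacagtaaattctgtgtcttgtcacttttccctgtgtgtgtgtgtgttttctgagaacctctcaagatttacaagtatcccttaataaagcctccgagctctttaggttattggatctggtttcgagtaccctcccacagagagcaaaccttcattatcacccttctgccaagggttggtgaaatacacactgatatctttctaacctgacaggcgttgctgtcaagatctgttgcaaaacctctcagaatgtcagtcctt
Oprd1, chr4:132144437-132144736, minus strand: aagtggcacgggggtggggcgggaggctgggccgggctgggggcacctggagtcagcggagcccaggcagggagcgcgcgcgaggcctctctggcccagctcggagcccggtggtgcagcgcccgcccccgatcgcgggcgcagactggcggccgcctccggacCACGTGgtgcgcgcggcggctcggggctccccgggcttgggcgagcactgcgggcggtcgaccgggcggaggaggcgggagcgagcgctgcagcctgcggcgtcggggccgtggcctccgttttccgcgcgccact
Tac1 held TGCGTCA 199 bases and CACGTG 61 bases before the start, and Oprd1 held CACGTG 86 bases before it. TGCGTCA was found in 2.12% and CACGTG in 7.15% of 32851 promoters of this length. None of the 4 motifs was found in the Pdyn window shown, which lies inside the annotated gene. Another Pdyn window, chr2:129699889-129700188, lies next to the annotated start of the gene at 129699844. It is not shown and held none of the 4 motifs either.

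Neurons were divided into 41 types or clusters of at least 50 nuclei without using the 8 genes or the other pathway genes. Of these, 23 were named from marker genes and 18 are called by their leading genes. Each peptide was concentrated in a few of them. A cluster compared with others is a description, not a test.

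**Figure D1:**
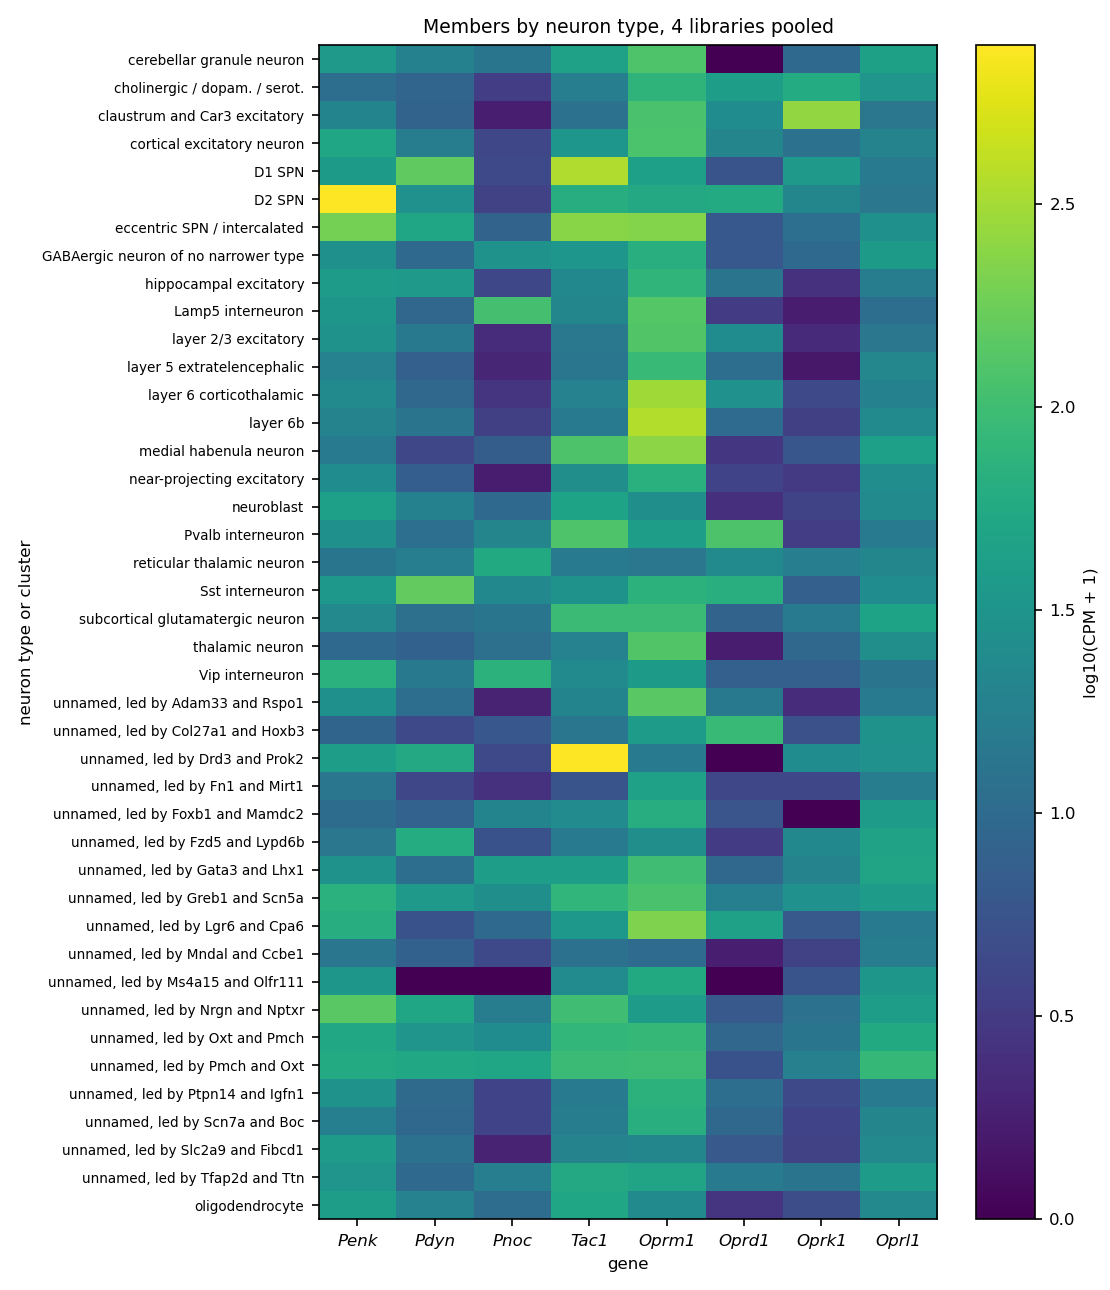
Level of each of the 8 genes (columns) in the 41 neuron types and clusters (rows) and in oligodendrocytes, as log10(CPM + 1) over the 4 libraries together. Penk peaked in D2 SPN-like nuclei at 761 CPM, and Tac1 in the cluster led by Drd3 and Prok2 at 774 CPM.

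Penk, the enkephalin precursor (chromosome 4, 4133531 to 4138819, minus strand), was highest in D2 SPN-like nuclei. These nuclei were named from Drd2, Adora2a and Gpr6. Penk stood there at 704, 844, 572 and 766 CPM. In D1 SPN-like nuclei, named from Drd1, Ebf1 and other markers, it lay between 22.9 and 43.3 CPM, so the classes did not overlap in any library. After every nucleus was thinned to 1000 UMIs, 43.6% of D2 SPN-like nuclei (interval 41.1 to 46.1%) and 2.7% of D1 SPN-like nuclei held a Penk UMI. Oligodendrocytes, which should lack the gene, stood at 3.7%, so the D1 share was at background. Without thinning these shares were 75.6%, 12.2% and 6.7%, at median depths of 4178.5, 5164 and 1751 UMIs.

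The next level of Penk was in a class that met the markers of both eccentric SPNs and intercalated neurons, clusters of the amygdala and striatum that carry Tshz1 and Foxp2. It was at 180.5 to 196 CPM over the 4 libraries, a narrow range. A cluster led by Nrgn and Nptxr came next, at 159 and 125 CPM in cortex AAV-CTRL and cortex AAV-VEGF-C. This cluster also met oligodendrocyte markers and had a median of 1606 UMIs. Interneurons with the vasoactive intestinal peptide gene Vip followed at 79.5 and 71.2 CPM in the libraries labelled cortex. These values are to be read against 66.6 and 68.9 CPM in oligodendrocytes of the same libraries.

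Tac1, the precursor of substance P (chromosome 6, 7554879 to 7565834, plus strand), was highest in a small cluster led by Drd3 and Prok2, at 774 CPM (706 to 847) over 220 nuclei. Drd3 encodes the D3 dopamine receptor, and Isl1, a regulator of D1 SPN identity, was at 100 CPM there against 5.9 CPM in other neurons. Of these nuclei, 51.1% held a Tac1 UMI at 1000 UMIs. In D1 SPN-like nuclei Tac1 was at 282, 397, 313 and 426 CPM. The corresponding D2 values were 60.2, 64.2, 56.9 and 72.7 CPM, again without overlap.

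The class of eccentric SPNs and intercalated neurons came next, at 133 to 277 CPM over the 4 libraries. Outside the SPNs, Tac1 was at 127 and 120 CPM in fast-spiking Pvalb interneurons of the libraries labelled cortex. It was at 123 and 120 CPM in medial habenula neurons, which were found almost only in the libraries labelled striatum. These levels lay within each other's counting intervals.

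Pdyn, the dynorphin precursor (chromosome 2, 129686565 to 129699844, minus strand), was highest in D1 SPN-like nuclei and Sst interneurons. In D1 SPN-like nuclei it was at 117, 159, 181 and 202 CPM. In D2 SPN-like nuclei it was at 28.6, 24.3, 41.9 and 30.0 CPM, against 28.6, 20.9, 16.7 and 13.3 CPM in oligodendrocytes. Somatostatin (Sst) interneurons reached 199 CPM in cortex AAV-CTRL and 135 CPM in cortex AAV-VEGF-C. Over all libraries the Sst and D1 levels, 157 and 153 CPM, did not differ beyond counting error. The next cluster of at least 50 nuclei, led by Fzd5 and Lypd6b, had 60.9 and 60.5 CPM with AAV-CTRL and AAV-VEGF-C in the libraries labelled striatum, against 16.7 and 13.3 CPM in oligodendrocytes. A cluster of 41 nuclei led by the neurohypophysial hormone genes Avp and Oxt had 117 CPM (74.4 to 176). Pdyn was seen in fewer nuclei than Tac1: 13.2% of D1 SPN-like and 9.0% of Sst nuclei at 1000 UMIs, against 1.8% of oligodendrocytes.

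**Figure D2:**
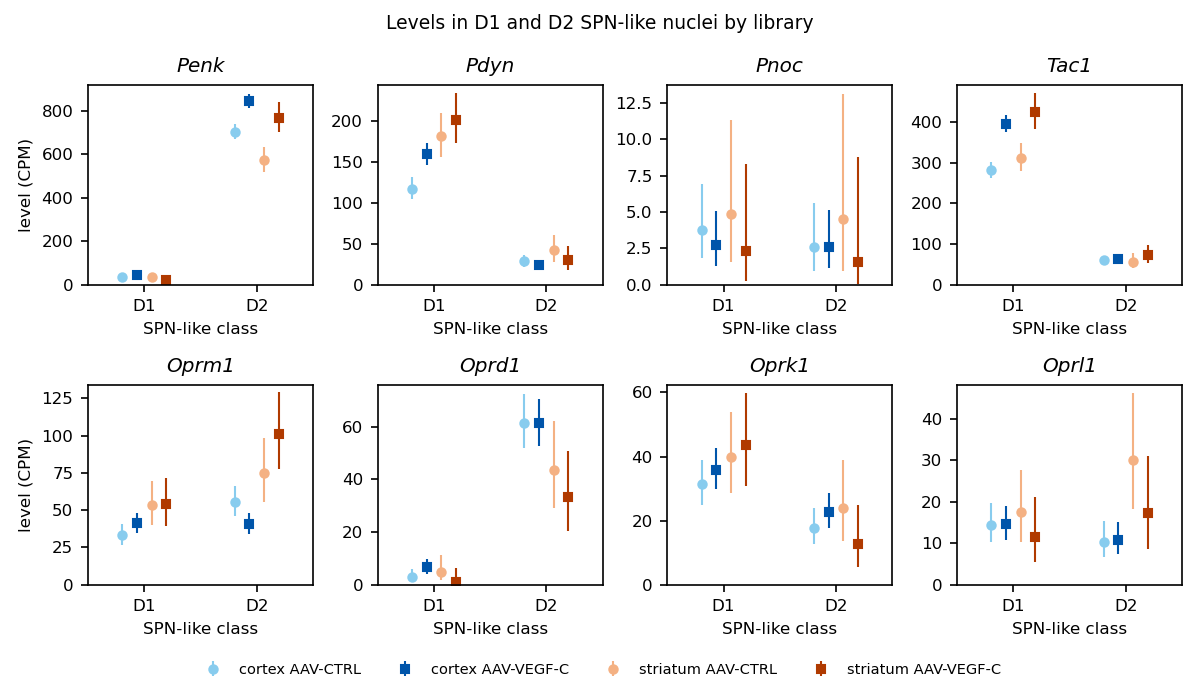
Level (CPM, linear axes from 0) of each gene in D1 and D2 SPN-like nuclei, 1 point per library, with bars for the exact 95% counting interval. Penk and Oprd1 were higher in D2 and Tac1, Pdyn and Oprk1 higher in D1 in all 4 libraries.

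Tac1 and Pdyn were met in the same nuclei. At 1000 UMIs, Pdyn was seen in 19.8% of D1 SPN-like nuclei with Tac1 (16.2 to 23.7%) and in 10.4% of those without (8.7 to 12.4%). Both genes were seen in 5.8% of nuclei, and in 32.1% without thinning. In D2 SPN-like nuclei the share with a Tac1 UMI, 5.1% with Penk (3.6 to 7.0%) and 8.8% without (7.0 to 10.8%), lay near the 4.9% of oligodendrocytes, and no pattern was read from it.

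Pnoc, the nociceptin precursor (chromosome 14, 65400673 to 65425472, minus strand), was highest per UMI in interneurons and inhibitory thalamic cells. It was at 108 and 112 CPM in Lamp5 interneurons of cortex AAV-CTRL and cortex AAV-VEGF-C. Vip interneurons followed at 59.7 and 84.5 CPM. Reticular thalamic neurons, an inhibitory shell around the thalamus, had 54.3 and 47.1 CPM with AAV-CTRL and AAV-VEGF-C in the libraries labelled striatum. A large cluster led by Gata3 and Lhx1 had 34.7 and 46.7 CPM in these libraries, and it carried 29.4% and 37.1% of all their Pnoc UMIs. SPN-like nuclei had at most 4.9 CPM, at or below the 4.7 to 12.3 CPM of oligodendrocytes.

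Among the receptors, Oprm1, the mu receptor (chromosome 10, 6758506 to 7038198, plus strand), was the most widely spread. Its median over the 41 types, 70.8 CPM, lay above the oligodendrocyte level of 11.4 to 29.7 CPM. Microglia, which are not neurons, had 37.7, 30.9, 66.7 and 87.4 CPM, the last of them above that median. It was highest in layer 6b neurons, at 404 and 326 CPM in cortex AAV-CTRL and cortex AAV-VEGF-C, and next in layer 6 corticothalamic neurons, at 332 and 279 CPM. The library ranges of these neighbours overlapped. Medial habenula neurons had 217 and 276 CPM and thalamic neurons 108 and 146 CPM with AAV-CTRL and AAV-VEGF-C in the libraries labelled striatum. Oprm1 spans 280 kb, of which 152403 bases are shared with Ipcef1 on the opposite strand. Ipcef1 was also the gene whose levels over types were most like those of Oprm1 (r = 0.60 over 41 types). Whether the counting used strand is not given in the sources used here.

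Oprd1, the delta receptor (chromosome 4, 132110726 to 132144486, minus strand), was highest in Pvalb interneurons, at 120 CPM in both libraries labelled cortex. Sst interneurons of those libraries had 67.2 and 65.2 CPM. D2 SPN-like nuclei had 61.5, 61.3, 43.4 and 33.2 CPM, whereas D1 SPN-like nuclei had 1.1 to 6.6 CPM. The lowest of the D1 values rests on 1 UMI. A cluster led by Col27a1 and Hoxb3, found only in the libraries labelled striatum, had 90.5 and 85.2 CPM. Oligodendrocytes had 1.0 to 2.5 CPM. Of D2 SPN-like nuclei with Penk, 5.7% held Oprd1 (4.1 to 7.7%), and of those without, 4.4% (3.1 to 5.9%), so the intervals overlapped.

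Oprk1, the kappa receptor (chromosome 1, 5588466 to 5606131, plus strand), was highest in claustrum and Car3 excitatory neurons, at 255 CPM in cortex AAV-CTRL and 272 CPM in cortex AAV-VEGF-C. At 1000 UMIs, 21.5% of these 214 nuclei held a UMI, against 0.4% of oligodendrocytes. Of the nuclei in the cluster that gave most of them, 38.0% were called doublets, and the part of doublets in this level was not tested. A class that met cholinergic, dopaminergic and serotonergic markers followed at 73.8 and 65.0 CPM with AAV-CTRL and AAV-VEGF-C in the libraries labelled striatum. D1 SPN-like nuclei had 31.4, 35.9, 39.8 and 43.5 CPM, and D2 SPN-like nuclei 17.7, 22.7, 24.0 and 12.6 CPM.

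Oprl1, the nociceptin receptor (chromosome 2, 181715016 to 181720985, plus strand), was the flattest. Subcortical glutamatergic neurons had 45.1 and 49.3 CPM with AAV-CTRL and AAV-VEGF-C in the libraries labelled striatum, against 26.3 and 24.9 CPM in oligodendrocytes. Its highest level, 82.1 CPM, was in a cluster of few UMIs led by Pmch and Oxt, which also met astrocyte and oligodendrocyte markers. No neuron type stood far above the rest for this gene.

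For each gene, the genes whose levels over the 41 types were most like it were named by Pearson's r of log2(CPM + 10), over types that share libraries and depth. For Penk they included Adora2a (r = 0.86) and Rxrg (0.75). For Pdyn they were Sytl5 (0.67), Fbxo25 (0.64) and Gnal (0.63), and for Pnoc Nrtn (0.84), Tctex1d2 (0.76) and Gm29683 (0.75). For Tac1 they were Clic6 (0.79), Clec12a (0.78) and Ccdc187 (0.77). After Ipcef1, the receptor Oprm1 was followed by 1700003F12Rik and Rai14 (0.57 each). The closest gene to Oprd1 was Gm26594 (0.61), to Oprk1 Scara5 (0.77) and to Oprl1 Wdr6 (0.85).

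In whole libraries, which mix all cell types, fewer cells of a type and less RNA per cell cannot be told apart. Penk was at 71.9, 78.1, 30.4 and 33.3 CPM. Both libraries labelled striatum were thus lower, by 1.24 and 1.23 on the log2 scale within AAV-CTRL and AAV-VEGF-C. D2 SPN-like nuclei made up 3.47%, 3.85%, 0.78% and 0.77% of nuclei. They carried 38.9%, 47.5%, 19.0% and 23.5% of all Penk UMIs.

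**Figure D3:**
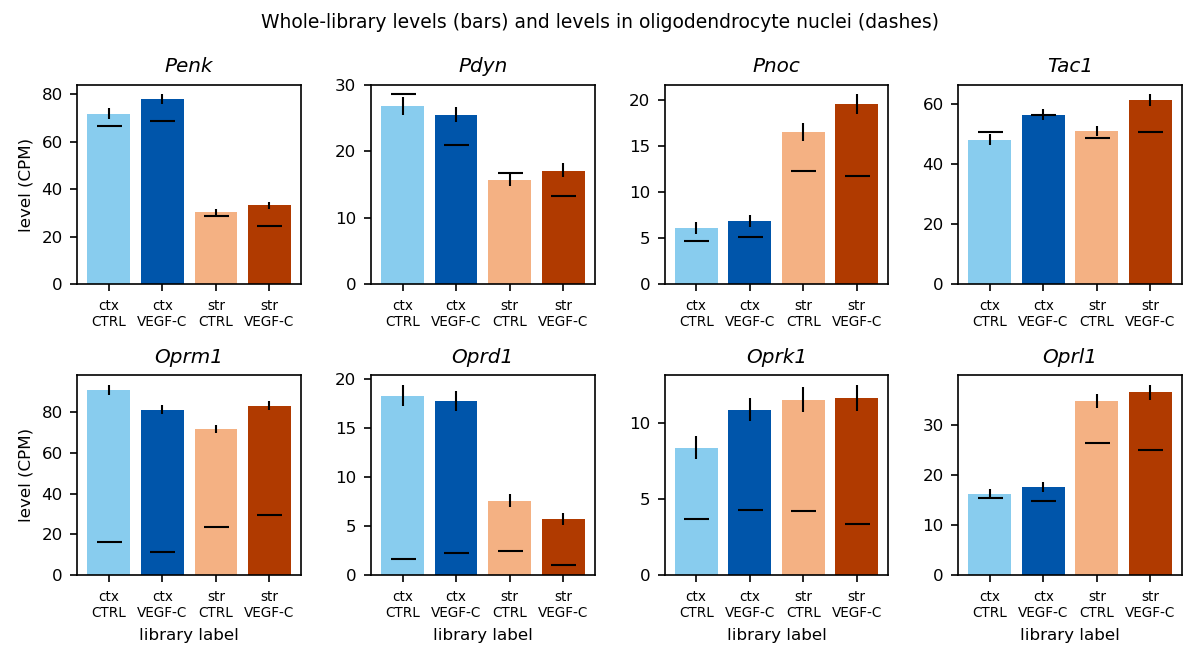
Level of each gene in the whole library (bars, CPM from 0, with the exact 95% counting interval) and in oligodendrocyte nuclei of the same library (black dashes). In Penk, Pdyn, Tac1 and Oprl1 the dashes lie near the bars, and in Oprm1, Oprd1 and Oprk1 far below them.

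Between region labels, 5 of the 8 genes within AAV-CTRL and 4 within AAV-VEGF-C passed a 1.5-fold difference, where 30.6% and 31% of all tested genes did. Oprd1 was lower in the libraries labelled striatum, at 7.6 and 5.7 CPM against 18.3 and 17.8 CPM. Pnoc was higher, at 16.5 and 19.5 CPM against 6.1 and 6.8 CPM, and Oprl1 was higher, at 34.8 and 36.5 CPM against 16.1 and 17.5 CPM. Pdyn was lower by 0.77 within AAV-CTRL and by 0.58 within AAV-VEGF-C on the log2 scale, the latter just short of the threshold of 0.58 before rounding. Tac1 differed by 0.08 and 0.12 on the log2 scale, and this direction turned with trimmed-mean scaling (-0.09 and -0.08). With a fixed make-up of cell types, 2 genes passed within AAV-CTRL and 1 within AAV-VEGF-C, and 4 genes turned within AAV-CTRL: Pnoc to -0.25, Oprd1 to 0.0084, Oprm1 from -0.35 to 0.31 and Oprk1 from 0.46 to -0.44. Over types with at least 50 nuclei in both libraries, a limit set after those values were seen, 3 and 4 genes passed, with Pnoc at 1.21 and Oprd1 at -0.34. The share of all genes that pass with a fixed make-up was not computed, so these counts cannot be set against 30.6% and 31%.

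Cell types not known for these peptides held their UMIs as well. Oligodendrocytes held Penk at 66.6, 68.9, 28.8 and 24.5 CPM, close to the whole-library levels. Tac1 was at 48.6 to 56.3 CPM in the same nuclei. Whether free RNA gave these UMIs was not tested. The ratio of Tac1 to Penk in oligodendrocytes, 0.76, 0.82, 1.69 and 2.07, lay near that in astrocytes, 0.70, 0.81, 1.62 and 1.84.

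Between viruses, none of the 8 genes passed 1.5-fold in the whole libraries of either region label, where 5.37% of genes did in those labelled cortex and 7.68% in those labelled striatum. With nuclei thinned to 1000 UMIs, 1 gene did in those labelled striatum, Oprd1 at -0.63. The share of all genes was not computed with thinning or with a fixed make-up. Tac1 was at 48.0 and 56.4 CPM in cortex AAV-CTRL and cortex AAV-VEGF-C, a log2 difference of 0.23 (0.16 to 0.30). In the libraries labelled striatum it was at 50.8 and 61.3 CPM, a difference of 0.27 (0.20 to 0.34). Penk differed by 0.12 (0.06 to 0.18) and 0.13 (0.04 to 0.22), and thinning turned the former to -0.021. Oprm1 was lower in AAV-VEGF-C in the libraries labelled cortex, by 0.16, and higher by 0.22 in those labelled striatum. A fixed make-up gave 0.032 with the cortex label, and -0.19 over types of at least 50 nuclei. For Pnoc it gave -0.82 with the cortex label, past the fold, and 0.17 over types of at least 50 nuclei. For Oprd1 the log2 ratio was -0.42 (-0.62 to -0.22) between the libraries labelled striatum and -0.04 between those labelled cortex. Oprk1 differed by 0.38 in the libraries labelled cortex, which a fixed make-up turned to -0.28, and by 0.02 in the others.

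Tac1 and Penk were higher in the AAV-VEGF-C libraries within their own SPN class too. Tac1 in D1 SPN-like nuclei differed by a log2 value of 0.49 (0.36 to 0.62) between the cortex-labelled libraries and 0.44 (0.23 to 0.66) between the striatum-labelled ones. Penk in D2 SPN-like nuclei differed by 0.26 (0.17 to 0.35) and 0.42 (0.23 to 0.62). Pdyn in D1 SPN-like nuclei differed by 0.44 (0.24 to 0.65) and 0.15 (-0.15 to 0.46). None of these passed 1.5-fold. With nuclei thinned to 1000 UMIs, Tac1 passed with the striatum label (0.90), and Penk with the cortex label was at 0.061. Without thinning, 9.12% and 16.1% of all genes tested in D1 SPN-like nuclei passed 1.5-fold, and 9.23% and 17.3% in D2 SPN-like nuclei. The median difference over these genes lay between -0.01 and 0.04. Drd1 in D1 SPN-like nuclei was at 215 and 290 CPM in the libraries labelled cortex, and at 232 and 204 CPM in those labelled striatum. Its log2 differences were 0.43 (0.28 to 0.58) and -0.18 (-0.47 to 0.10). Ppp1r1b in these nuclei differed by 0.45 (0.26 to 0.64) and -0.29 (-0.70 to 0.11), and Isl1 by 0.46 (-0.11 to 1.05) and 0.64 (-0.21 to 1.51). In D2 SPN-like nuclei Adora2a and Drd2 differed in the same direction as Penk. Ppp1r1b did so with the cortex label alone, at 0.45 (0.25 to 0.65) there and -0.01 (-0.54 to 0.51) with the striatum label. The log2 difference of Adora2a was 0.29 (0.16 to 0.42) with the cortex label and 0.17 (-0.12 to 0.46) with the striatum label, and that of Drd2 was 0.11 (0.0031 to 0.22) and 0.13 (-0.12 to 0.39). Their part in the Penk values was not tested.

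Cortical receptors and interneuron peptides showed other values. In layer 6 corticothalamic neurons Oprm1 differed by -0.25 (-0.37 to -0.14) and in layer 6b neurons by -0.31 (-0.55 to -0.07). Among 22 types of the libraries labelled cortex, the interval for Oprm1 left out 0 in 8, and in all 8 it was lower in AAV-VEGF-C. Of all pairs of any gene and type there, 9.8% had such an interval, and 4.1% had it on the lower side. In the libraries labelled striatum the interval left out 0 in 4 of 17 types, all higher, where 12% of pairs had such an interval and 6.64% had it on the higher side. Thalamic neurons were among them, with 0.44 (0.31 to 0.57). The shares of all pairs cover genes with as few as 20 UMIs in a type and were not matched to the counts of Oprm1. Types of a region label come from the same pair of libraries, so they are not independent of each other. Pdyn in Sst interneurons differed by -0.56 (-0.84 to -0.28). Oprd1 in Pvalb interneurons differed by 0.01 (-0.27 to 0.29), and Oprk1 in claustrum and Car3 neurons by 0.09 (-0.22 to 0.41).

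Over all pairs of a gene and a neuron type with at least 20 UMIs, 23 of 134 passed 1.5-fold between the libraries labelled cortex and 18 of 105 between those labelled striatum. These are 17.2% and 17.1%, where 12.4% and 14.3% of all pairs of any gene and type did. Of the same 134 and 105 pairs, 9 and 5 passed the fold with a counting interval that also left out 0. Of all pairs of any gene and type, 3.86% and 4.52% did both.

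**Figure D4:**
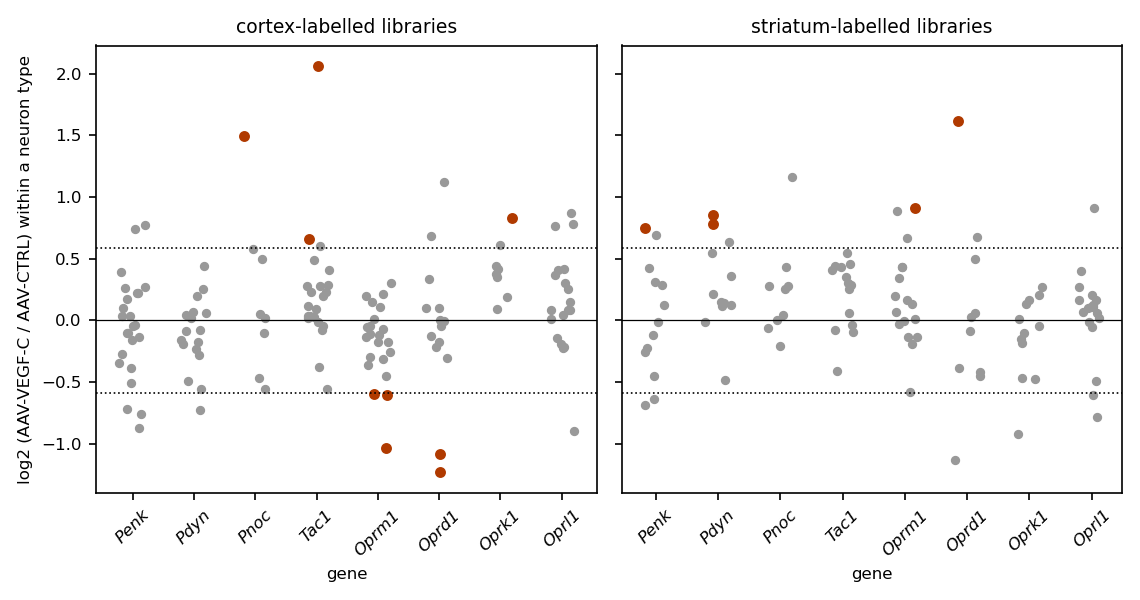
Log2 ratio of AAV-VEGF-C to AAV-CTRL for each gene, 1 point per neuron type with at least 50 nuclei in both libraries and 20 UMIs. Dotted lines mark 1.5-fold, and the 9 (left) and 5 (right) coloured points also have a counting interval that leaves out 0; points are spread sideways for sight only.

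Of a list of 61 further genes of the pathway, 60 were in the files and 59 had at least 20 UMIs in each contrast. Between viruses, 1 gene passed 1.5-fold in the libraries labelled cortex and 2 in those labelled striatum, all lower in AAV-VEGF-C, where 3.02% and 4.26% of all genes were. The median log2 ratio of the list was 0.01 and -0.00, against -0.01 and 0.00 over all genes. Anpep, an aminopeptidase that breaks down enkephalins, was the gene past the fold in both, at 2.3, 1.5, 4.2 and 2.6 CPM.

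Between region labels, 14 genes of the list were higher and 7 lower in the libraries labelled striatum within AAV-CTRL, and 15 and 8 within AAV-VEGF-C. Of all genes, 20.7% and 21.3% were higher and 9.89% and 9.67% lower. Of the 6 other ligands and receptors tested, all 6 within AAV-CTRL and 5 within AAV-VEGF-C were higher. Tacr1, the receptor of substance P, was at 10.3, 10.2, 22.6 and 22.3 CPM. The neurokinin B receptor Tacr3 was higher by 1.78 and 2.08 on the log2 scale. Pcsk2, a convertase that cuts the precursors, was lower in the libraries labelled striatum, at 409 and 470 CPM against 834 and 852 CPM. Kcnj6, a potassium channel subunit opened by these receptors, was lower as well, at 126 and 127 CPM against 236 and 232 CPM. Another potassium channel subunit of the list, Kcnj5, was higher instead, at 3.1 and 3.7 CPM against 0.38 and 0.43 CPM. Its log2 differences were 3.03 and 3.10, at low levels throughout.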

How the data were processed

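Nuclei were profiled with 10x 3′ chemistry. The authors deposited raw UMI counts per gene and barcode, aligned to mm10 by Cell Ranger (5.0.1 in the file headers, 5.1.1 in the submitters' processing notes); whether intronic reads were counted is not given in the sources used here. All 78728 deposited nuclei were clustered with Leiden (scanpy 1.11.5, leidenalg 0.10.2; 5000 genes, 50 components, 15 neighbours, resolution 1.2) without the 8 genes and the pathway list. Nuclei called doublets by Scrublet (4.31 to 7.95% per library) and 15 clusters with at least 40% of them were removed, leaving 72957. Clusters with Meg3 at 2000 CPM or more, 40439 nuclei, were clustered again at resolution 2. Names needed 3 markers at 2-fold and in 10% of nuclei; this rule and the Meg3 and doublet thresholds were set after the clusters were seen, and unnamed clusters hold 15676 nuclei. Counts were summed per library and type. CPM intervals are Poisson, ratios conditional binomial, shares Clopper-Pearson. Calls needed 1.5-fold and 20 UMIs over the pair. Named genes were the 8, pathway genes past the fold in the same direction in both pairs (at most 4 a direction), the 3 most alike genes (1 of them is not reported here) and label checks. Members and lists were chosen with earlier results of these data known. Ratios were also computed with all barcodes, trimmed-mean scaling, thinning to 1000 UMIs, a fixed type make-up (every type in both libraries; types with 50 nuclei in both were taken after those values were seen) and neurons alone. Levels and ratios per type were also computed with the 8 genes and the pathway list used to cluster. Scripts were tested on simulated data. Gene positions are from GENCODE vM21.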

Additional observations from a re-analysis of the deposited data

Results flagged for a closer look

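Oprm1 differed with opposite signs between viruses in the whole libraries: its log2 ratio of AAV-VEGF-C to AAV-CTRL was -0.16 in the libraries labelled cortex and 0.22 in those labelled striatum, and both counting intervals left out 0. With a fixed make-up of cell types the former was 0.032, and -0.19 over types of at least 50 nuclei. The difference between the regions was not tested, since each group was 1 library.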

How the results depend on the processing

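No paired analysis was possible because each group was 1 library. Library-level log2 ratios that left their own counting interval follow, and then some of those within a type. Counts of genes past the fold in these settings have no share of all genes beside them, since none was computed. For AAV-VEGF-C against AAV-CTRL, thinning nuclei to 1000 UMIs gave -0.021 (Penk), -0.081 (Oprm1) and 0.12 (Oprd1) in the libraries labelled cortex, and -0.63 (Oprd1) and 0.20 (Oprk1) in those labelled striatum, where 1 of the 8 genes then passed 1.5-fold. A fixed make-up over every type that both libraries held gave 0.048 (Penk), -0.82 (Pnoc), 0.032 (Oprm1), -0.28 (Oprk1) and 0.25 (Oprl1) with the cortex label, where 1 gene passed, and 0.28 (Penk), -0.039 (Pdyn), -0.036 (Pnoc), 0.41 (Tac1), 0.15 (Oprm1), -0.071 (Oprd1), -0.18 (Oprk1) and -0.14 (Oprl1) with the striatum label. Types of under 50 nuclei in either library, some of 1 nucleus, carried 27.7% and 31.0% of that weight. Without them, a restriction chosen after these values were seen, it gave 0.053 (Penk) with the cortex label, and 0.22 (Penk) and -0.016 (Oprl1) with the striatum label.

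For the striatum against the cortex label, such types carried 50.3% of the weight within AAV-CTRL and 51.6% within AAV-VEGF-C. The make-up over every type gave -0.69 (Penk), -0.26 (Pdyn), -0.25 (Pnoc), 0.18 (Tac1), 0.31 (Oprm1), 0.0084 (Oprd1) and -0.44 (Oprk1) within AAV-CTRL, where Pnoc, Oprm1, Oprd1 and Oprk1 turned and 2 genes passed. Within AAV-VEGF-C it gave -0.43 (Penk), -0.23 (Pdyn), 0.51 (Pnoc), 0.27 (Tac1), 0.32 (Oprm1), -0.16 (Oprd1), -0.23 (Oprk1) and 0.60 (Oprl1), and 1 gene passed. Without these types it gave -0.66 (Penk), -0.12 (Pdyn), 1.21 (Pnoc), 0.24 (Oprm1), -0.34 (Oprd1) and 0.75 (Oprl1) within AAV-CTRL, where 3 genes passed, and -0.51 (Penk), -0.0047 (Pdyn), 0.69 (Pnoc), -0.032 (Tac1), 0.61 (Oprm1), -0.87 (Oprd1), 0.35 (Oprk1) and 0.63 (Oprl1) within AAV-VEGF-C; the types left held 36.7 to 55.6% of UMIs. Trimmed-mean scaling, which shifted these ratios by 0.18 and 0.20, gave -1.41 (Penk), -0.95 (Pdyn), 1.26 (Pnoc), -0.092 (Tac1), -0.52 (Oprm1), -1.44 (Oprd1), 0.29 (Oprk1) and 0.93 (Oprl1) within AAV-CTRL, and -1.42 (Penk), -0.77 (Pdyn), 1.32 (Pnoc), -0.077 (Tac1), -0.16 (Oprm1), -1.84 (Oprd1), -0.10 (Oprk1) and 0.86 (Oprl1) within AAV-VEGF-C. Thinning gave -1.40 (Penk), -0.63 (Pdyn), 1.23 (Pnoc), -0.10 (Tac1), -0.16 (Oprm1) and -0.97 (Oprd1) within AAV-CTRL, and -1.32 (Penk), 1.25 (Pnoc), -0.063 (Tac1), 0.16 (Oprm1) and 0.38 (Oprk1) within AAV-VEGF-C. Neurons alone gave 0.17 (Tac1), -0.29 (Oprm1) and 1.26 (Oprl1) within AAV-CTRL, and -1.15 (Penk), 0.24 (Tac1), 0.092 (Oprm1) and 1.21 (Oprl1) within AAV-VEGF-C, and all deposited barcodes gave 0.051 (Tac1) within AAV-VEGF-C.

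Thinning reversed the within-class values of Penk (0.45) and Oprl1 (0.45) in D1 SPN-like nuclei of the libraries labelled striatum and of Oprd1 (-0.36) in those labelled cortex. It gave 0.90 for Tac1 in D1 SPN-like nuclei with the striatum label and 0.061 for Penk in D2 SPN-like nuclei with the cortex label. Of the pathway list, 0, 1, 13 and 9 genes passed 2-fold in the cortex and striatum virus contrasts and the AAV-CTRL and AAV-VEGF-C region contrasts, and 2 passed 1.5-fold in the first without a UMI minimum. The causes were not tested, and depth limits every value resting on few UMIs.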
